A study of Homo sapiens with 16 samples.

Results

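The 35 genes described here are NF-kappaB subunits, the IkappaB proteins that hold or modify them, signalling components of the pathway, and genes known as NF-kappaB targets. They were listed by name, with earlier results of these data known, and 35 of 35 are among the 28374 genes of the count table. Expression was measured by total RNA sequencing in serum-starved, quiescent cultures of the human skin fibroblast line CCD-1070Sk. Cells were left untreated (control), or were given epidermal growth factor (EGF, 30 ng/ml) or the phorbol ester TPA (100 nM) for 1 h. H89 (10 µM), a kinase inhibitor used here against the kinases MSK1 and MSK2 and also known to act on protein kinase A, was given for 30 min alone (H89) or before 1 h with EGF or TPA (EGF+H89, TPA+H89). H89 alone is recorded at 0 h, so its cells may have been in the inhibitor for a shorter time than those that also received a mitogen. All groups share 1 cell line and the serum starvation. Of the 16 samples, 4 are controls, 3 had EGF alone, 2 TPA alone and 3 H89 alone, and the combinations have 2 each. The columns of control replicates 3 and 4 were equal at 100% of 19340 genes, against 0.252% to 3.77% for other pairs of libraries, so both were used as a single sample and 15 libraries remained. Nothing in the labels says that replicates came from separate cultures, and p-values therefore reflect the spread among the sequenced libraries alone, which may be technical.

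NF-kappaB transcription factors are dimers of the REL-domain proteins encoded by NFKB1, NFKB2, REL, RELA and RELB. In resting cells they are kept inactive by IkappaB proteins. When a receptor or protein kinase C activates the IkappaB kinase complex, IkappaB is degraded and the dimers bind kappaB sites in DNA. Among the first genes they switch on are their own inhibitors, so that NFKBIA, TNFAIP3 and related genes serve both as brakes and as readouts of the pathway. TPA activates protein kinase C, which in many cell types signals to the IkappaB kinase through the adaptors BCL10 and MALT1. MSK1 is known to phosphorylate RELA, and chromatin at some of these genes.

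The letters at which NF-kappaB is known to bind are shown first, because many members carry them next to their start sites, whether or not their levels stood apart after TPA. RefSeq promoter windows (GRCh38.p14, 250 bases before to 50 after a start site) were matched by symbol for 31 of 35 members, with no window for RELB, RIPK2, NFKBIE and CSF1. The kappaB consensus, a motif of 10 letters searched on both strands, was found in the windows of 17 of these 31 members (54.8%) and of 7.09% of 27305 genes. By window, it was found in 23 of 57 member windows (40.4%) and in 5.91% of all 35116. The exact form that most members carried, GGGAATTTCC, was found in 0.145% of all windows and in those of 5 members, NFKB1, NFKBIA, NFKBIB, NFKBIZ and REL. The form carried by the next most members, GGGACTTTCC, was found in 0.191% of all windows and in those of CYLD, NFKB2, TNFAIP3 and TNIP1. Both are also matches of the consensus, and since the members' windows chose them, their shares are a description. The stretch before the start site of NFKBIA, the main IkappaB, is given whole, and those of 4 other members around the match, in GRCh38.p14 coordinates and read on the strand of the gene. Capitals mark the match.
NFKBIA, chr14:35404750-35404999, minus strand: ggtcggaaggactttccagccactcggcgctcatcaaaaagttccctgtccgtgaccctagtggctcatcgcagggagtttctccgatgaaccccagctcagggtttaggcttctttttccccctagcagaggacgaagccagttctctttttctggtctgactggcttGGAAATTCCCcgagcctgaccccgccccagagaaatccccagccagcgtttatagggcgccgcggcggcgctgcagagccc
NFKBIZ, chr3:101827752-101827791, plus strand: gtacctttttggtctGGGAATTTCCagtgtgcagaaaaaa
NFKBIB, chr19:38899926-38899965, plus strand: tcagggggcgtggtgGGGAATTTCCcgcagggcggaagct
NFKB1, chr4:102501295-102501334, plus strand: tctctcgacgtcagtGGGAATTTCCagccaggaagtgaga
BIRC3, chr11:102317270-102317309, plus strand: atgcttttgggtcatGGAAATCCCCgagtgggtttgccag
In NFKBIA and BIRC3 the match is on the other strand. The first capital stands at -81 relative to the start site of its window in NFKBIA, at -223 in NFKBIZ, at -28 in NFKBIB, at -49 in NFKB1 and at -199 in BIRC3. Further matches are not shown. NFKBIZ has one at -239 in a window of another start site. NFKBIB has one at -27 on the other strand, overlapping that shown, and BIRC3 one at -135. A match is a description of the sequence and not evidence that NF-kappaB was bound in these cells. As the values below show, genes with the same letters did not have the same levels: NFKBIZ was high in both TPA libraries, while NFKBIB was high in 1 of them.

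Total counts ranged from 7527026 (TPA+H89 1) to 130075914 (TPA 2). The 3 technical batches read from the counts crossed the groups. They were control 1 and EGF 1 (batch A), 6 libraries with over 10% of their counts on 2 ribosomal RNA genes (batch B), and 7 with none (batch C). Batch A was set by having more genes with 1 count than with 2. Batches A and B are not uniform. In batch A the ribosomal share was 4.48% in control 1 and 0.0183% in EGF 1. In batch B it was 11.7% in TPA 1 and 12% in TPA+H89 1. It was 24.8% to 30.4% in the other libraries of batch B, with control 2 at 30.4%. Control 1, EGF 1 and TPA 2 stood apart, with median correlations to the other libraries of 0.913, 0.899 and 0.935 against 0.961 to 0.982. The control column deposited as both replicates 3 and 4 was placed with the sample names of replicate 3, and which of both it belongs to is unknown. So placed, no control shares both its batch and its set of neighbouring sample names with a TPA library. Control 3 shares its set with TPA 1 and its batch with TPA 2, so no pair of TPA and control holds both alike. Placed with replicate 4, the column would share both with TPA 2 and not with EGF 3. As placed, EGF against control has 3 such pairs of libraries, and each mitogen with H89 against the mitogen alone has 2. The 9 fibroblast markers summed to 27300 to 54800 CPM (counts scaled to library size) in every library. The 8 leukocyte markers summed to 40.4 to 50.4 CPM in the controls, 12.4 to 47.1 with EGF, 23.6 to 29.2 with TPA, 42.7 to 67.6 with H89, 48.2 to 60.4 with EGF+H89 and 17.7 to 50 with TPA+H89, and their part in the results was not tested. PTPRC, the defining leukocyte gene, stayed under 1 CPM in all libraries. Of the other leukocyte markers, CD68 ranged from 8.74 to 65.9 CPM and the rest stayed at 1.41 CPM or less. KRT10, a keratinocyte gene, ranged from 6.04 to 47.7 CPM. In bulk RNA, fewer cells of a type and less RNA per cell cannot be told apart.

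Levels below are CPM after TMM scaling, a normalisation for library composition, and log2 fold changes are from edgeR's quasi-likelihood fit of all 15 libraries with 1 term per group, given with their standard error. That error was derived from the test, as the absolute log2 fold change divided by the square root of the F value. A gene was called at a Benjamini-Hochberg adjusted p under 0.05 over the 18575 genes that passed the filter on low counts. Of the 35 members 34 passed it, all but TNF. Without a batch term 0 of 34 members were called by edgeR in any of the 10 comparisons. With it 2 were, NFKBIZ and NFKBIA, both higher in TPA against control. DESeq2, without a batch term, called 4 members in TPA against control (NFKBIA, NFKBIZ, NFKBID and RIPK2, all higher, where it called 2.82% of all genes) and 0 in the other comparisons. The heat map of all libraries shows the levels from which these tests were made.

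**Figure D1:**
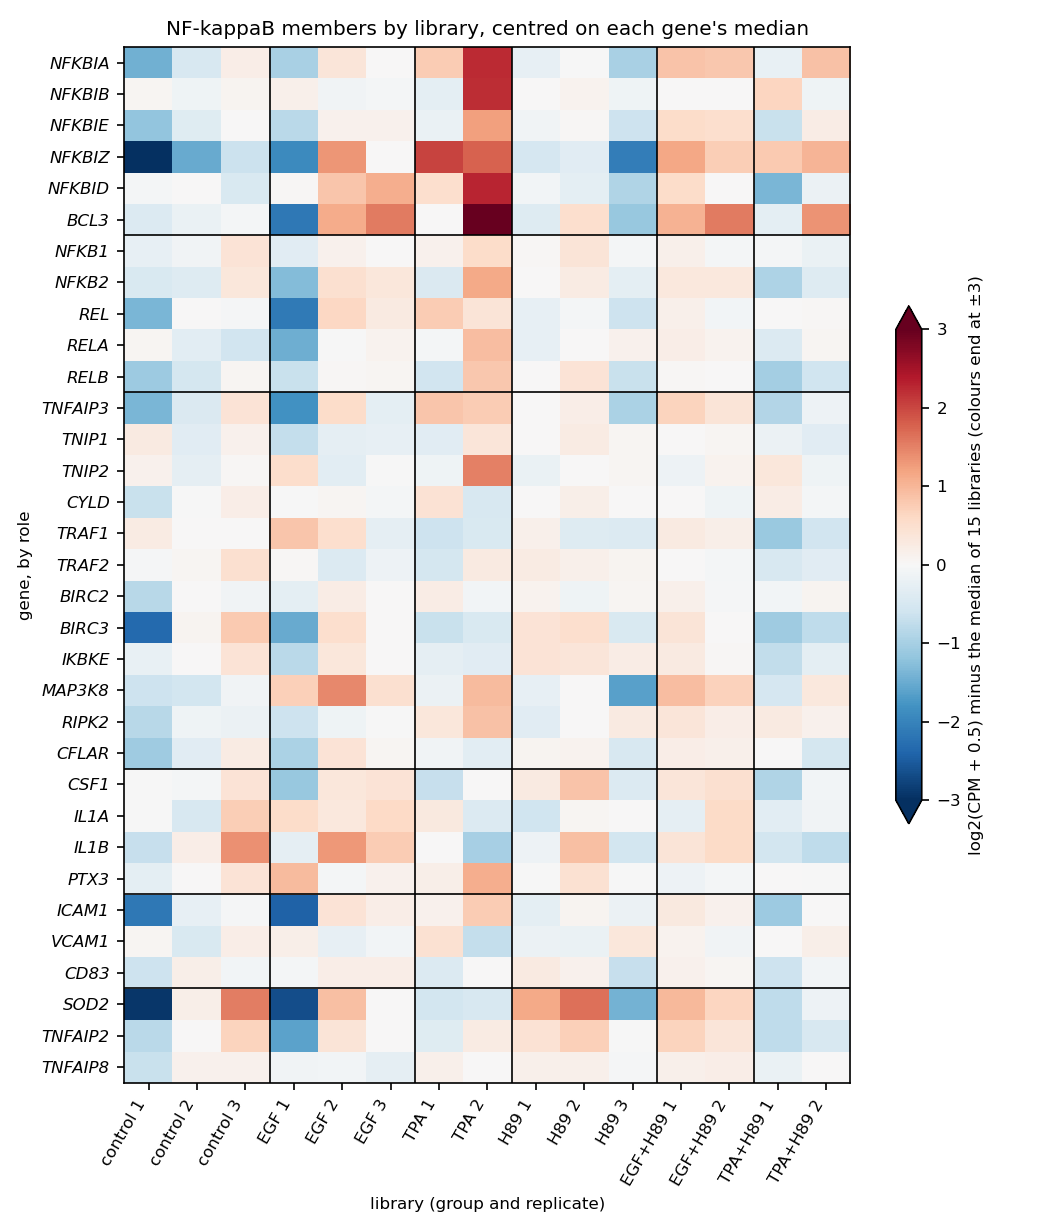
Level of 33 members in each of 15 libraries as log2(CPM + 0.5) minus the gene's median over the libraries, ordered by role (black lines) and by group; TNF and CSF2 are left out because their counts were near 0. TPA 2 is the darkest red library in the rows of NFKBIA, NFKBIB, NFKBID and BCL3, and the control 1 and EGF 1 columns are blue for SOD2, BIRC3, ICAM1 and NFKBIZ.

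The comparison of TPA with control asked which members responded to a phorbol ester. The genes of lowest p encoded IkappaB proteins. NFKBIZ encodes IkappaB-zeta, a nuclear member of the family that directs NF-kappaB to a second wave of genes. Its level was 11.4, 32.8 and 60.8 CPM in the controls and 389 and 329 CPM in the TPA libraries. Both TPA libraries were thus above each control by a wide margin. The log2 fold change was 3.36 ± 0.80 (adjusted p = 0.131 by edgeR, not called), and with the batch as a term NFKBIZ rose by 2.78 ± 0.48 (adjusted p = 0.00697). Within batches B and C the log2 difference of TPA to control was 3.55 and 2.43. Without TPA 2 the value was 3.47 and without TPA 1 it was 3.23, so that neither library alone gave this difference. In the fit with the batch term 2 of 34 members were called higher, against 0.948% of all genes, and 0 lower, against 0.307%. Without the term 0 of 34 were called, against 0.388% and 0.0269% of all genes.

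NFKBIA encodes IkappaB-alpha, which NF-kappaB itself induces and which then takes the dimers back out of the nucleus. It stood at 42.2, 83.0 and 133 CPM in the controls and at 199 and 555 CPM with TPA. The groups did not overlap, but the TPA libraries differed from each other by more than the TPA 1 library did from control 3. The log2 fold change was 2.13 ± 0.56 (adjusted p = 0.185 by edgeR), and NFKBIA rose by 1.77 ± 0.40 with the batch term (adjusted p = 0.0395). Without TPA 2 the value was 1.21 without the term and 1.03 ± 0.40 with it (adjusted p = 0.331), which ended the call. Both calls also depended on the controls. With the batch term and without control 2 the adjusted p was 0.0775 for NFKBIZ and 0.152 for NFKBIA, and without control 3 it was 0.0741 and 0.265. Without control 1 NFKBIZ kept its call (adjusted p = 0.0486) and NFKBIA lost it (adjusted p = 0.137).

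The other IkappaB members were set apart mainly by 1 library. NFKBID, which encodes the nuclear protein IkappaB-NS, stood at 3.95, 4.14 and 2.86 CPM in the controls and at 6.04 and 22.2 CPM with TPA. BCL3, a nuclear IkappaB that works with NFKB1 and NFKB2 dimers, stood at 7.34, 8.70 and 9.49 CPM in the controls and at 9.98 and 119 CPM with TPA. In both genes the second TPA library lay far above all others and the first just above the controls. Their log2 fold changes were 1.95 ± 0.55 and 2.92 ± 1.01, and 0.73 and 0.23 without TPA 2. NFKBIB, the IkappaB-beta gene, was at 10.9 to 12.8 CPM in the controls, 9.73 CPM in TPA 1 and 57.1 CPM in TPA 2. Its value of 1.48 ± 0.50 turned to -0.30 without TPA 2. NFKBIE, for IkappaB-epsilon, had 1.16 ± 0.48, and 0.24 without that library. All 6 IkappaB genes had positive values and 6 of 6 an unadjusted p under 0.05, with a median of 2.04, against a median of -0.02 over all tested genes, of which 13.2% had such a p. TPA 2 held the highest level of 14 of 34 members and of 21.2% of all genes.

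**Figure D2:**
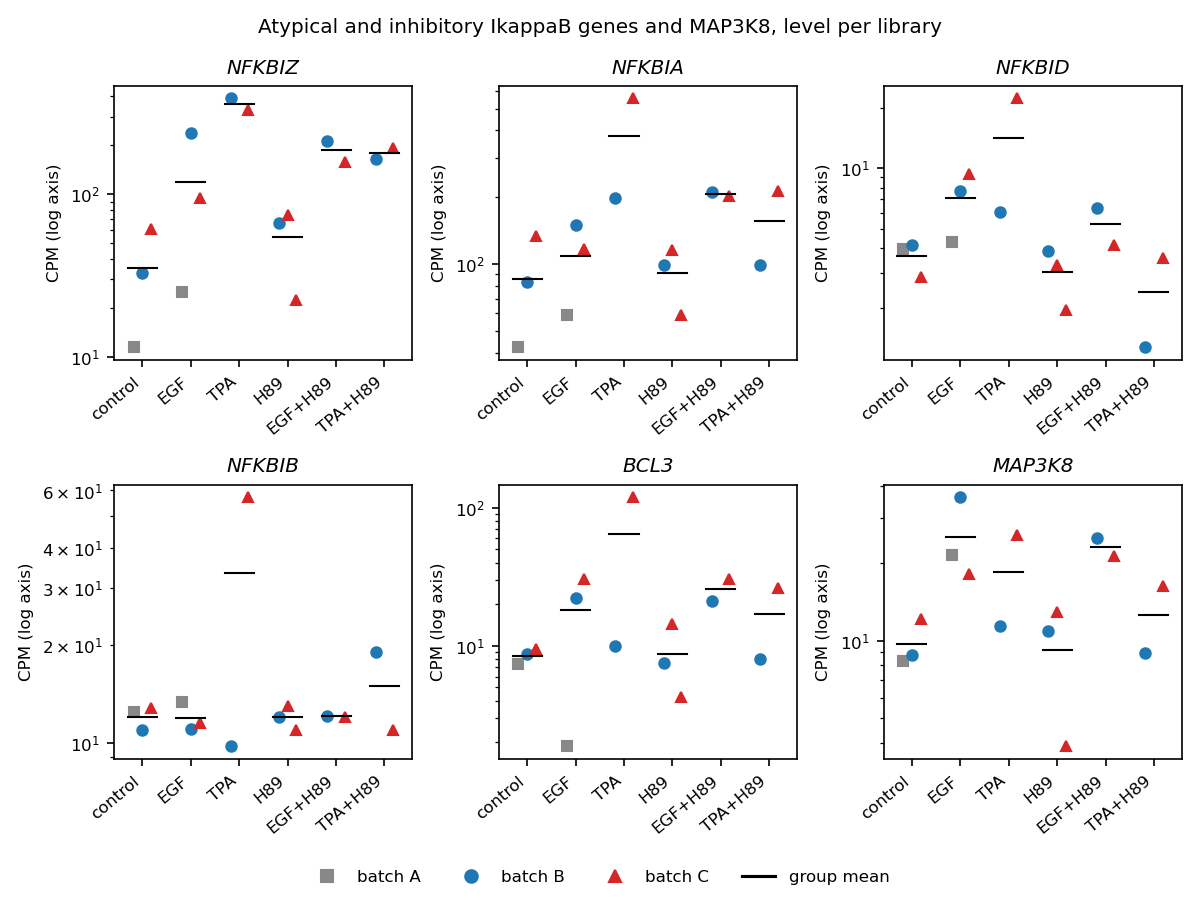
CPM on a log axis in each library for 5 IkappaB genes and MAP3K8, by group; point shape gives the batch and the line the group mean. NFKBIZ is at 389 and 329 CPM in the TPA libraries against at most 60.8 in the controls, while NFKBIB is at 57.1 CPM in TPA 2 and at 9.73 in TPA 1.

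The subunit genes differed less. NFKB1, the gene of p105 and p50, was at 62.1, 68.3 and 98.8 CPM in the controls and 80.1 and 108 CPM with TPA. RELA, the main activating subunit, was at 53.7, 41.6 and 34.4 CPM against 49.2 and 98.3 CPM. RELB, the subunit of the non-canonical pathway, was at 8.86, 13.4 and 20.2 CPM against 12.7 and 34.4 CPM. In these 3 genes the groups overlapped. REL was at 3.91, 10.9 and 10.7 CPM against 18.9 and 14.4 CPM, without overlap. The 5 subunit genes, NFKB2 among them, had values of 0.30 to 0.98 with a median of 0.74, and none had an unadjusted p under 0.05. With the batch term that median was 0.39.

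Among 12 signalling components and brakes, 8 had positive values and the median was 0.13. RIPK2, a kinase that links NOD receptors to the pathway, was at 9.45, 15.7 and 15.1 CPM in the controls and 21.9 and 31.9 CPM with TPA. The log2 fold change was 1.01 ± 0.30, and 0.72 without TPA 2. TNFAIP3 encodes A20, an enzyme that edits ubiquitin chains and ends signalling. It was at 5.52, 11 and 20.0 CPM in the controls and 27.1 and 25.7 CPM with TPA, so that the TPA libraries were alike and above each control. Its value was 1.11 ± 0.62 and differed little without either TPA library, at 1.15 and 1.07. Without control 1 it was 0.76, and the differences within batches B and C were 1.26 and 0.35. TNIP2, a partner of A20, had 0.95 ± 0.39, which was -0.09 without TPA 2. BIRC3, an inhibitor of apoptosis that joins TRAF complexes, was at 1.52, 10.3 and 16.9 CPM in the controls and 5.89 and 6.86 CPM with TPA. The TPA values lay inside the range of the controls. TRAF1, an adaptor, and IKBKE, an IkappaB kinase relative, lay lower in both TPA libraries than in each control, with log2 fold changes of -0.73 ± 0.39 and -0.39 ± 0.32.

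Of the members grouped as secreted, surface and other targets, ICAM1 was the one with both TPA libraries above the controls. NFKBIA and TNFAIP3, which NF-kappaB also induces, are given above with their roles. ICAM1, an adhesion molecule for leukocytes, was at 32.7, 122 and 142 CPM in the controls and 161 and 249 CPM with TPA. IL1B, a pro-inflammatory cytokine, was at 1.28, 2.76 and 6.80 CPM in the controls and 2.35 and 0.926 CPM with TPA, and IL1A at 1.02, 0.600 and 2.04 CPM against 1.36 and 0.645 CPM. CD83 was at 4.24, 7.68 and 6.32 CPM against 4.93 and 6.75 CPM. SOD2, the mitochondrial superoxide dismutase, was at 134, 1150 and 2950 CPM in the controls and 687 and 724 CPM with TPA. IL1A, IL1B, CD83 and SOD2 overlapped between the groups. The cytokine genes TNF and CSF2 were near the limit of detection. TNF had 3, 0 and 8 counts in the controls, 12, 2 and 0 with EGF, 0 and 28 with TPA, 0, 2 and 0 with H89, 0 and 0 with EGF+H89 and 0 and 6 with TPA+H89. TNF thus had 0 counts in 8 libraries, which allows a level of up to 0.0424 to 0.547 CPM in them, and at most 28 counts, in TPA 2. CSF2, a growth factor for myeloid cells, had 3, 0 and 7 counts in the controls, 6, 2 and 4 with EGF, 6 and 12 with TPA, 0, 9 and 34 with H89, 0 and 2 with EGF+H89 and 0 and 27 with TPA+H89. It had 0 counts in 4 libraries, and its highest level was 0.480 CPM, in H89 3. These limits cover counting error only, and no change of TNF or CSF2 was detectable at this depth.

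The remaining members are given by their range. NFKB2, the gene of p100 and p52, was at 20.7 to 114 CPM over the 15 libraries, and the ubiquitin-binding partner of A20 TNIP1 at 83.4 to 177 CPM. The deubiquitinase gene CYLD was at 36.2 to 78.6 CPM, the adaptor TRAF2 at 5.30 to 11.2 CPM, BIRC2 at 58.7 to 123 CPM and CFLAR, which blocks caspase-8, at 51.1 to 143 CPM. The macrophage growth factor gene CSF1 was at 55.0 to 217 CPM and PTX3 at 312 to 821 CPM. TNFAIP2 was at 22.9 to 116 CPM, TNFAIP8 at 23.0 to 42.8 CPM and the adhesion molecule VCAM1 at 0.463 to 1.67 CPM. None of these 11 members had a log2 fold change of TPA against control with an unadjusted p under 0.05, and TPA 2 was the highest library for NFKB2, TNIP1 and PTX3.

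In all, 8 of 34 members lay higher in both TPA libraries than in every control (NFKBIA, NFKBIZ, NFKBID, BCL3, REL, TNFAIP3, RIPK2 and ICAM1), against 9.60% of all genes, and 2 lay lower (TRAF1 and IKBKE), against 10.1%. Within both batches B and C, 15 members were higher with TPA, against 23.5% of all genes, and 8 were lower, against 25.3%. An unadjusted p under 0.05 was reached by 8 of 34 members (23.5%) and by 13.2% of all genes. The median of the members was 0.50, and 0.22 with the batch term. It was -0.02 without control 1, EGF 1 and TPA 2. The lowest log2 fold change of an IkappaB gene was 1.16 and the highest of a signalling component 1.11. With the batch term these were 0.83 and 1.03, so the roles were not apart. The plot of fold changes by role shows the IkappaB genes beside the rest.

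**Figure D3:**
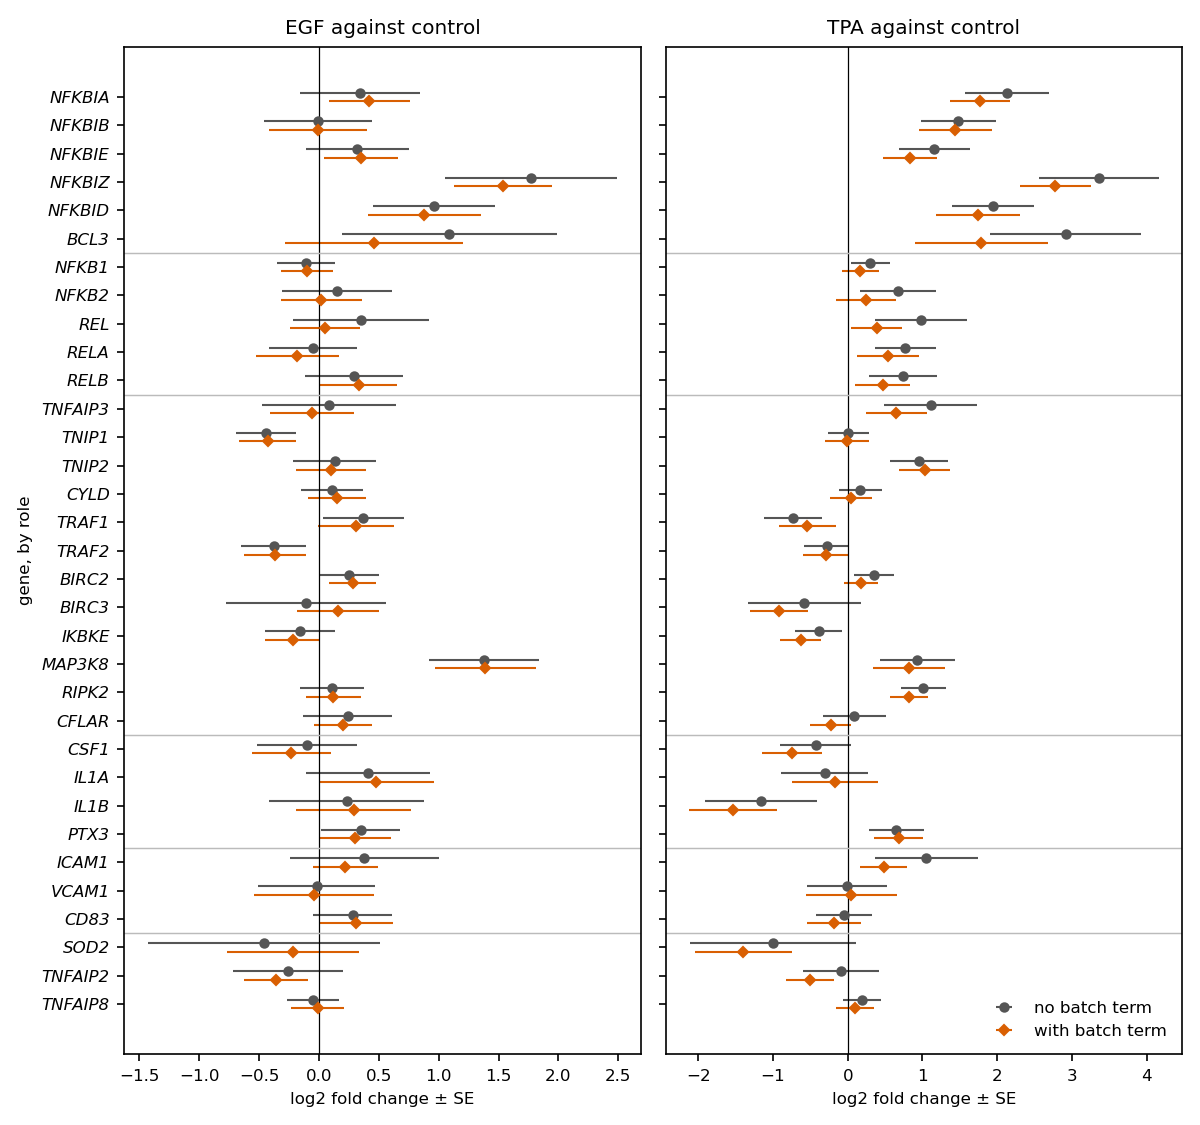
Log2 fold change ± SE of 33 members in EGF against control (left) and TPA against control (right), from edgeR without a batch term (grey circles) and with it (orange diamonds); CSF2 and TNF are left out. After TPA the 6 IkappaB genes at the top lie right of 0 in both fits, while IL1B and SOD2 lie left of it; after EGF, NFKBIZ and MAP3K8 lie farthest right.

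The comparison of EGF with control asked the same of the growth factor, and shares its control libraries with that of TPA. No member was called with or without the batch term, against 0.221% and 0.0269% of all genes called higher and 0% lower. The members of lowest p were MAP3K8 and NFKBIZ. MAP3K8 encodes TPL2, a kinase that is held by the NFKB1 product p105 and signals to ERK. Its level was 8.30, 8.76 and 12.1 CPM in the controls and 21.6, 36.1 and 18.1 CPM with EGF. Each EGF library was above each control. The log2 fold change was 1.38 ± 0.46 (adjusted p = 1 by edgeR), and the 3 library pairs gave 1.33, 1.98 and 0.56. NFKBIZ was at 25.1, 238 and 95 CPM with EGF, and EGF 1 lay within the range of the controls. Within each pair it was higher with EGF, by 1.10, 2.84 and 0.64, and its log2 fold change was 1.77 ± 0.72 (adjusted p = 1 by edgeR), or 0.78 without EGF 2. NFKBID was at 4.26, 7.70 and 9.31 CPM with EGF, above each control, with 0.96 ± 0.51.

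Of the IkappaB genes 5 of 6 had positive values with EGF, with a median of 0.65, and of the subunit genes 3 of 5, with a median of 0.15. NFKBIE was higher with EGF in each pair, by 0.39, 0.49 and 0.12, with 0.32 ± 0.43. NFKBIA was at 59.3, 150 and 117 CPM against 42.2, 83.0 and 133 CPM, with 0.34 ± 0.50. BCL3 was at 1.87, 22.2 and 30.3 CPM against 7.34 to 9.49 CPM in the controls. It was lower with EGF in the batch A pair (-1.72) and higher in the others (1.30 and 1.62). RELA was at 18.4, 51.3 and 55.3 CPM, REL at 2.14, 17.2 and 13.1 CPM, NFKB1 at 57.8, 81.2 and 73.3 CPM and RELB at 12.0, 19.8 and 20.0 CPM. In each of RELA, REL and NFKB1 the lowest of these was EGF 1, which was also the lowest of all 15 libraries. TNFAIP3 was at 3.95, 22.5 and 12.3 CPM, BIRC3 at 3.03, 13.9 and 9.67 CPM and ICAM1 at 26.7, 193 and 168 CPM, again with EGF 1 lowest. IL1B was at 1.85, 6.58 and 4.33 CPM, IL1A at 1.72, 1.40 and 1.79 CPM and CD83 at 6.47, 7.80 and 7.85 CPM.

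Over the members, the median of EGF against control was 0.15, against 0.02 for all genes, and 2 of 34 had an unadjusted p under 0.05 (5.88%, and 1.63% of all genes). In 7 of 34 members the level was higher with EGF in all 3 pairs of libraries, against 12.2% of all genes, and in 0 it was lower in all 3, against 10.3%. The 7 were NFKBIE, NFKBIZ, NFKBID, BIRC2, MAP3K8, RIPK2 and CD83. After rounding, the log2 difference in batch B was 0 for RIPK2 and 0.02 for CD83, so these rest on very small differences. In 2 members, NFKBID and MAP3K8, the groups did not overlap and EGF was higher, against 2.97% of all genes, and in 0 it was lower, against 1.99%. Without control 3 the median was 0.51 with 31 of 34 values positive, and without control 1 it was 0.01 with 18.

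TPA against EGF compared both mitogens directly. Again 0 of 34 members were called, as were 0% of all genes without the batch term, 0.205% higher and 0.129% lower with it, and 1.62% by DESeq2. Without the term 4 of 34 had an unadjusted p under 0.05 (11.8%, and 13.4% of all genes). NFKBIA (1.79 ± 0.56, adjusted p = 0.307 by edgeR) and NFKBIB (1.49 ± 0.50, adjusted p = 0.323) had the lowest p. NFKBIA was higher in both TPA libraries than in each EGF library. NFKBIB was so in TPA 2 only, and its value was -0.29 without that library. RIPK2 had 0.89 ± 0.30 and TRAF1 had -1.10 ± 0.40, both without overlap of the groups. For NFKBIZ the value was 1.59 ± 0.77 and for MAP3K8, which was 11.4 and 25.7 CPM with TPA, the groups overlapped. Without overlap 5 members were higher with TPA, against 9.71% of genes, and 2 lower, against 11.1%.

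H89 alone against control asked whether the inhibitor moved resting levels. No member was called, as were 0% of all genes, and 0 of 34 had an unadjusted p under 0.05, against 3.27% of all genes. The lowest p belonged to RIPK2 (0.35 ± 0.27, adjusted p = 1 by edgeR) and BIRC2 (0.28 ± 0.25). NFKBIA was at 98.6, 116 and 59.2 CPM with H89, NFKBIZ at 67.0, 74.4 and 22.3 CPM and MAP3K8 at 10.9, 12.9 and 3.87 CPM. BCL3 was at 7.48, 14.4 and 4.28 CPM, TNFAIP3 at 15, 17.4 and 7.64 CPM and BIRC3 at 12.8, 13.9 and 6.90 CPM. In each of these the H89 3 library was the lowest of the 3 and the groups overlapped. The same held for REL at 9.12, 10.3 and 6.86 CPM, NFKB1 at 75.8, 95.6 and 71.2 CPM, RELB at 19.3, 26.0 and 12.0 CPM and CD83 at 8.22, 7.52 and 3.97 CPM. RELA was at 43.4, 51.4 and 56.5 CPM and ICAM1 at 118, 154 and 128 CPM. IL1A was at 0.509, 1.08 and 1.03 CPM and IL1B at 2.08, 4.81 and 1.44 CPM. In 0 members the groups did not overlap, against 2.85% of all genes higher and 4.25% lower. Of 34 values 26 were positive, with a median of 0.12, but with the batch term 14 were, with a median of -0.04.

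After TPA, H89 went with lower levels of most members, but 0 of 34 were called with or without the batch term, as were 0% of all genes. NFKBID was at 6.04 and 22.2 CPM with TPA and at 1.28 and 3.57 CPM with TPA+H89. Both libraries with the inhibitor were below both without it, but the value in TPA+H89 1 rests on 7 counts. That library had the lowest total, 7527026, and 13.4% of its counts were on the gene RMRP, against 0.339% to 3.33% elsewhere. It enters the batch B pair of every member. The log2 fold change of NFKBID was -2.47 ± 0.65 (adjusted p = 0.713 by edgeR), and the pairs gave -1.88 and -2.48. Without TPA 2 the value was -1.24, and without TPA 1 it was -3.08, which passed the threshold (adjusted p = 0.027 by edgeR, where 3.59% of all genes were called). RELB was at 9.29 and 12.7 CPM with TPA+H89 against 12.7 and 34.4 CPM, and the higher value with the inhibitor lay just below the lower value without it. Its fold change was -1.09 ± 0.51 (adjusted p = 0.716 by edgeR), and -0.20 without TPA 2. NFKBIZ was at 164 and 193 CPM against 389 and 329 CPM with TPA alone, and the pairs gave -1.24 and -0.76. TNFAIP3 was at 8.02 and 13.5 CPM against 27.1 and 25.7 CPM, with pair values of -1.70 and -0.91. ICAM1 was at 67.4 and 145 CPM against 161 and 249 CPM. These 3 genes, like NFKBID, were without overlap.

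NFKBIA was at 99.3 and 214 CPM with TPA+H89 against 199 and 555 CPM with TPA, lower in each pair (-1 and -1.37) though the groups overlapped. BCL3 was at 8.02 and 26.2 CPM against 9.98 and 119 CPM. The subunit REL was at 10.9 and 11.2 CPM against 18.9 and 14.4 CPM, NFKB1 at 70.3 and 64.1 CPM against 80.1 and 108 CPM, and RELA at 38.3 and 53.7 CPM against 49.2 and 98.3 CPM. MAP3K8 was at 8.93 and 16.3 CPM, BIRC3 at 4.37 and 5.50 CPM and CD83 at 4.19 and 6.33 CPM. IL1A was at 0.729 and 0.912 CPM and IL1B at 1.46 and 1.18 CPM. Of all these named members, each was lower with H89 in both pairs except IL1A and IL1B, which were lower in 1 pair and higher in the other.

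Over the list, 20 of 34 members were lower with TPA+H89 than with TPA in both pairs, against 25.4% of all genes, and 0 were higher in both, against 20.5%. In 11 of 34 the groups did not overlap and H89 was lower, against 11.1% of all genes. These were NFKBIZ, NFKBID, NFKB1, REL, RELB, TNFAIP3, BIRC3, RIPK2, PTX3, ICAM1 and TNFAIP2. In 0 the groups did not overlap and H89 was higher, against 10.6%. An unadjusted p under 0.05 was reached by 1 member (2.94%) and by 7.00% of all genes. The median was -0.46 with 4 of 34 values positive, against -0.02 for all genes. Without TPA 2 the median was -0.20 with 11 positive. The TPA libraries enter this comparison and that with control with opposite signs, so a library that is high by itself raises one and lowers the other. The difference between the TPA responses with and without H89 was tested as an interaction, and 0 of 34 members and 0% of genes were called. NFKBID (-2.20 ± 0.81, adjusted p = 0.900 by edgeR) and RELB (-1.52 ± 0.66) were the 2 with an unadjusted p under 0.05 (5.88%, and 4.78% of all genes).

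After EGF the inhibitor did not go with lower levels of the list. Of 34 members 0 were called, as were 0% of genes, and 0 had an unadjusted p under 0.05, against 1.67% of genes. NFKBIA was at 210 and 203 CPM with EGF+H89, above the 59.3, 150 and 117 CPM with EGF, with 0.92 ± 0.56 (adjusted p = 1 by edgeR) and pair values of 0.48 and 0.80. RIPK2 was at 22.1 and 19.6 CPM against 10.9 to 16.8 CPM, with 0.53 ± 0.30 (adjusted p = 1 by edgeR). NFKBIZ was at 213 and 159 CPM, BCL3 at 21.1 and 30.5 CPM and MAP3K8 at 25.1 and 21.4 CPM, and in each the values overlapped with those of the EGF libraries. TNFAIP3 was at 24.1 and 19.9 CPM, BIRC3 at 12.8 and 9.63 CPM and ICAM1 at 178 and 161 CPM. NFKB1 was at 82.2 and 70.5 CPM, REL at 12.2 and 10.3 CPM, RELA at 59.0 and 55.3 CPM and RELB at 19.8 and 19.5 CPM. IL1A was at 0.769 and 1.76 CPM, IL1B at 3.21 and 3.76 CPM and CD83 at 7.41 and 6.99 CPM. NFKBID, at 6.33 and 4.16 CPM, was lower than with EGF in both pairs (-0.26 and -1.07), as were REL (-0.48 and -0.34) and IL1B (-0.93 and -0.18) among others.

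Without overlap of the groups, 6 members were higher with EGF+H89 than with EGF (NFKBIA, NFKBIE, RELA, TNIP1, RIPK2 and TNFAIP8), against 7.60% of all genes, and 2 were lower, against 10.1%. In 13 of 34 members both pairs were higher with the inhibitor, against 28.9% of genes, and in 12 both were lower, against 32.7%. The median was 0.21, and 0.07 with the batch term. In the interaction of EGF with H89 no member was called, as were 0% of genes. CSF2, whose counts were near 0 (-3.07 ± 2.32), and PTX3, a secreted pattern recognition protein (-0.62 ± 0.50, adjusted p = 1 by edgeR), had the lowest p, and 0 members had one under 0.05.

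The 2 effects of H89 were then compared with each other, a difference added after the data were seen. The effect after TPA minus that after EGF had a median of -0.66 over the members, with 4 of 34 values positive, against 0.07 for all genes. It was -2.19 ± 0.84 for NFKBIA, -2.03 ± 0.84 for NFKBID and -2.06 ± 0.94 for TNFAIP3, each with an adjusted p of 1 by edgeR, and these were the 3 with an unadjusted p under 0.05 (8.82%, and 2.98% of all genes). No member was called, as were 0% of genes. The median was -0.43 without TPA 2 and -0.19 with 7 positive without control 1, EGF 1 and TPA 2. The plot of pairs shows the 20 members left of 0 in both pairs after TPA and the smaller, mixed differences after EGF.

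**Figure D4:**
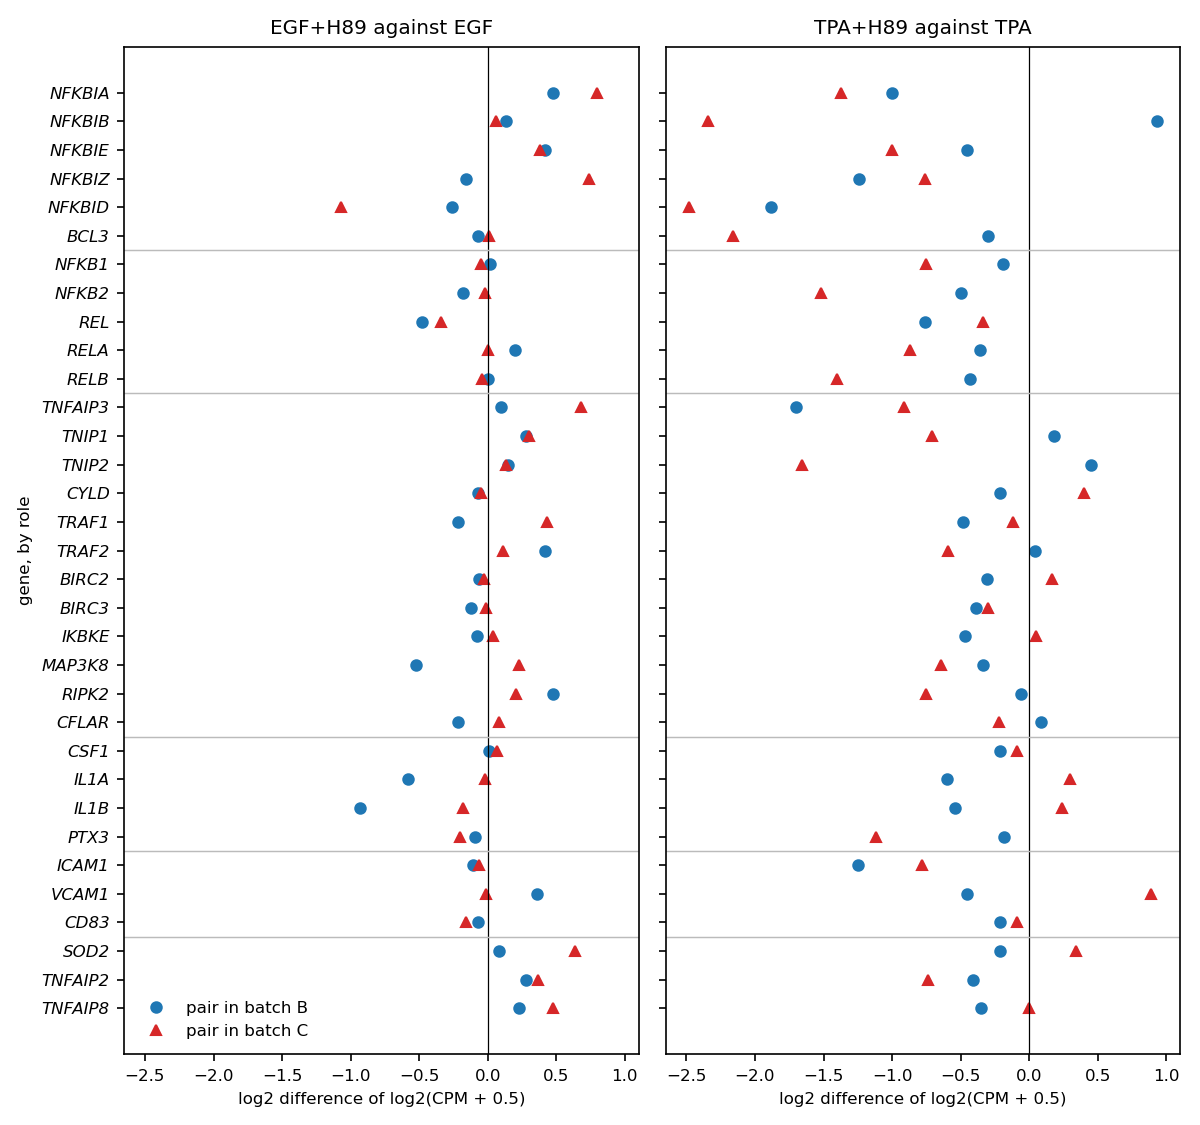
Difference in log2(CPM + 0.5) between the library with H89 and the library without it, for 33 members after EGF (left) and after TPA (right); each point is 1 pair of libraries that share batch and set of sample names. After TPA, NFKBID (-1.88 and -2.48), TNFAIP3, ICAM1 and RELB lie left of 0 in both pairs, while NFKBIB is right of 0 in one and left in the other.

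Each mitogen was also compared with H89 alone, in libraries that all held the inhibitor. For EGF+H89 against H89, 0 of 34 members were called, against 0.0269% of all genes called higher. An unadjusted p under 0.05 was reached by 2 members (5.88%, and 1.53% of all genes). MAP3K8 (1.33 ± 0.50) and NFKBIZ (1.77 ± 0.78, adjusted p = 1 by edgeR) were these. They were the members of lowest p in EGF against control too, a comparison that shares no library with this one. Both lay above each H89 library. In 11 of 34 members both EGF+H89 libraries were above all H89 libraries, against 10.7% of genes. They were NFKBIA, NFKBIE, NFKBIZ, NFKBID, BCL3, NFKB2, TNFAIP3, TRAF1, MAP3K8, CFLAR and ICAM1. The opposite held for 2, PTX3 and TRAF2, against 11.9%. In 22 members both batches were higher with EGF+H89, against 23.7% of genes, and in 6 both were lower, against 26.2%.

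For TPA+H89 against H89, 0 of 34 were called, against 0.0969% of genes called higher, and 2 had an unadjusted p under 0.05 (5.88%, and 3.89% of all genes). IKBKE, which was at 15.9 and 21.8 CPM against 31.2 to 35.7 CPM with H89, had -0.84 ± 0.33. NFKBIZ had 1.71 ± 0.78 (adjusted p = 1 by edgeR). In both the groups did not overlap. NFKBIZ had values of 1.71 to 3.36 in the 4 comparisons of a mitogen with its own unstimulated group, of which 1, EGF against control, had overlapping groups. REL was the other member higher without overlap, 2 in all against 9.92% of genes. The 8 that were lower without overlap, against 10.9%, included NFKB1, NFKB2, TRAF1, TRAF2 and BIRC3. The median was -0.18.

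Among the 6 libraries without a mitogen, some members varied widely. SOD2 was at 2230, 3220 and 380 CPM with H89 and, with the controls, spanned 24.1-fold. BIRC3 spanned 11.1-fold, and NFKBIZ, IL1B, ICAM1 and IL1A spanned 6.50-, 5.30-, 4.70- and 4.01-fold. With genes at 0 counts in some of these libraries counted as spanning over 4-fold, such a span was found in 7 of 34 members (20.6%), these 6 and CSF2, and in 30.7% of all genes. Control 1 was the lowest of the 6 for 21 of 34 members, against 32.1% of all genes, and H89 3 for 6, against 16.4%. Over all 15 libraries control 1 was lowest for 12 members, against 15.3% of genes, and EGF 1 for 11, against 14.9%. The part of the batch in these levels was not tested. SOD2 was at 161, 1900 and 1020 CPM with EGF, 2010 and 1580 CPM with EGF+H89 and 595 and 918 CPM with TPA+H89. It was thus lowest in control 1, EGF 1 and H89 3, at 1020 CPM or more in the other libraries without TPA, and between these in all 4 libraries with TPA.

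**Figure D5:**
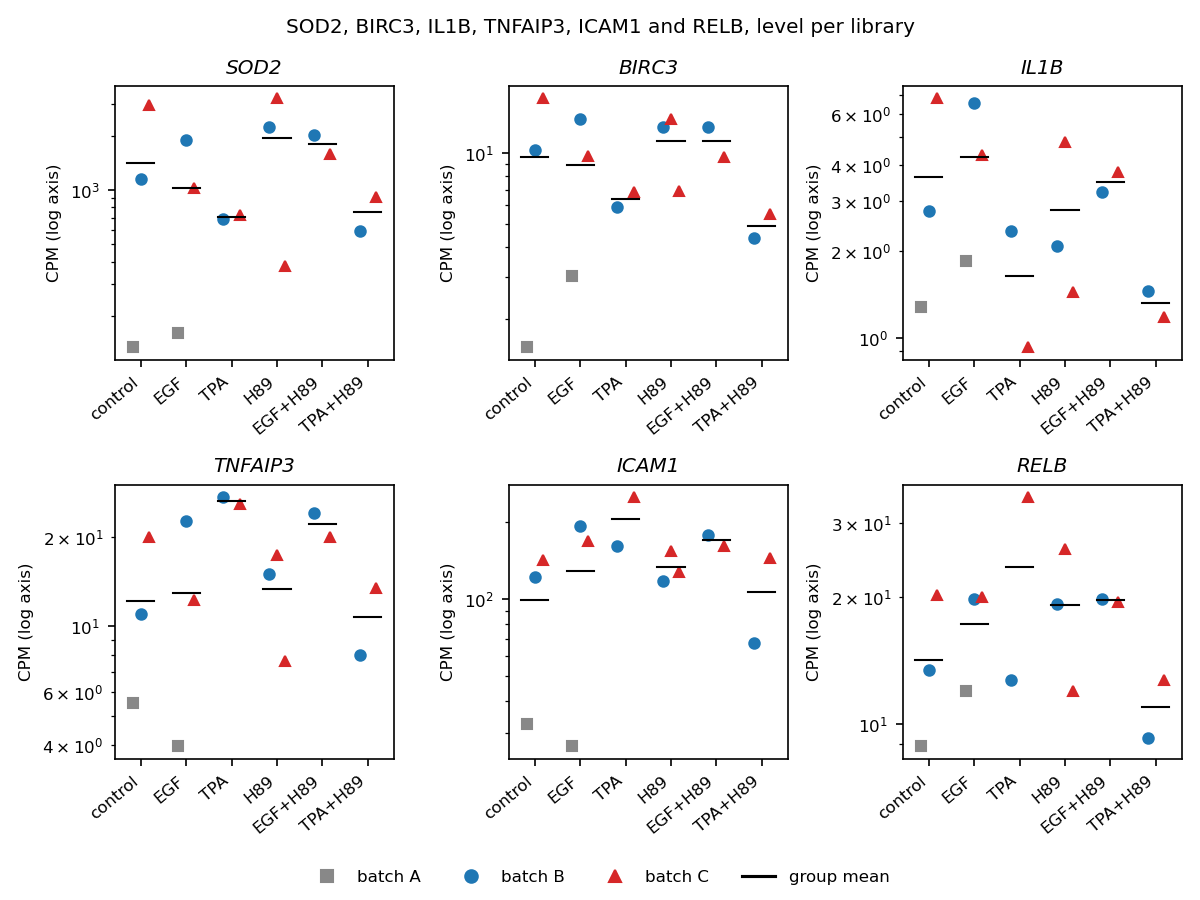
CPM on a log axis in each library for SOD2, BIRC3, IL1B, TNFAIP3, ICAM1 and RELB, by group, with point shape for the batch and a line for the group mean. The grey squares (control 1 and EGF 1) are lowest for SOD2, at 134 and 161 CPM, and for BIRC3 and ICAM1.

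The rest of the pathway was read from 2 further lists. Of 32 core components that are no members, such as kinases, adaptors and receptors, 31 were tested and 0 were called in EGF or TPA against control, with or without the batch term. In EGF against control MAP3K14, the kinase of the non-canonical pathway, had 1.56 ± 0.36 (adjusted p = 0.447 by edgeR), and BCL10, the adaptor below protein kinase C, had 1.00 ± 0.31. RIPK1 followed with 0.42 ± 0.27. In TPA against control BCL10 had 1.05 ± 0.34, the adaptor TRADD 1.21 ± 0.44 and the kinase IRAK1 1.01 ± 0.37 (adjusted p = 0.249, 0.290 and 0.302 by edgeR). The median of the list was 0.02 with EGF and 0.17 with TPA, and 2 and 5 of 31 had an unadjusted p under 0.05 (6.45% and 16.1%, against 1.63% and 13.2% of all genes).

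Of 23 symbols of further NF-kappaB targets 22 were rows and 19 were tested. With TPA 4 of 19 rose without the batch term and 0 fell, against 0.388% of all genes. PTGS2, the inducible prostaglandin synthase, rose by 4.67 ± 0.68 (adjusted p = 0.0109 by edgeR) and IER3, an early regulator of survival, by 5.35 ± 0.84. ZC3H12A, an RNase that degrades inflammatory messages, rose by 3.83 ± 0.71 and the stress gene GADD45B by 4.35 ± 0.82. With the batch term 6 rose, against 0.948% of all genes, among them the transcription factor gene IRF1 (1.86 ± 0.37) and the kinase gene NUAK2 (2.05 ± 0.48). With EGF 0 of 19 rose without the term, while 6 had an unadjusted p under 0.05, and PTGS2, IRF1 and IER3 rose with it, by 2.87 ± 0.34, 1.66 ± 0.32 and 2.23 ± 0.40, against 0.221% of all genes called higher. Without the term GADD45B had 2.30 ± 0.72 with EGF. PTGS2, IER3 and GADD45B are also known as targets of other pathways. In TPA+H89 against TPA 0 of 19 were called, as were 0% of all genes. In EGF+H89 against H89 0 of 19 were called without the batch term. With it 5 were higher, against 0.269% of all genes. For TPA+H89 against H89 these numbers were 0 and 4, the latter against 0.431% of all genes.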

How the data were processed

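Raw counts per gene in 16 samples were deposited by the authors in a table of the whole series. Ribosomal RNA was removed and strand-specific libraries were made, per the labels' protocols, which name 3 sequencing platforms without tying them to samples. HOMER and hg19 (GRCh37) are named in the submitters' processing notes, and the aligner is not given in the sources used here. One of 2 identical control columns was left out. Counts of the 15 libraries (7527026 to 130075914 each) were filtered (filterByExpr, 18575 genes), scaled by TMM and fitted with edgeR 4.0.16's quasi-likelihood test (R 4.3.3), 1 term per group, with Benjamini-Hochberg adjustment at 0.05. A fit with the technical batch as a term is given beside it. DESeq2 1.42.0, other scalings, filters and left-out libraries were alternatives, and the scripts were tested on simulated data. Deeper libraries count low genes more precisely. Differences of pairs are of log2(CPM + 0.5). The limit for a count of 0 is 3 counts of the library size after the low-count filter and TMM scaling.

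Full statistics are given for members called in either fit and, where none was called without the batch term, for the 2 of lowest p. Per-library values are given for 16 preset members, and other members by range. Outside the list, the 3 genes of lowest p and those called are named for EGF and TPA against control. The values of RIPK2, TNIP2, TRAF1, IKBKE, SOD2 and PTX3 named beyond this rule were chosen after they were seen. The members and lists were chosen with earlier results of these data known. Samples with serum or Rp-cAMPS in the protocols are not analysed here.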

Additional observations from a re-analysis of the deposited data

How the results depend on the processing

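In 7 of the 11 comparisons the number of members called stayed at 0 in every alternative run for them. The exceptions all involve TPA without H89. Libraries were left out with the batch term only in TPA against control and in TPA+H89 against TPA. In TPA against control 0 members were called, but 4 by DESeq2, 2 with the batch term and 1 (NFKBIZ) with a replicate block. With that block 0.447% of all genes were called. Omitting single libraries gave 0 to 5, the latter without TPA 1 (NFKBIA, NFKBIB, NFKBID, BCL3 and TNIP2, where 5.92% of all genes were called), and with the batch term 0 to 9. In TPA+H89 against TPA leaving out each library gave 0 to 2 and, with the batch term, 0 to 9, the highest again without TPA 1, where 16.7% of all genes were called. Members were also called in TPA against EGF and in the TPA interaction when TPA 1 was left out. The fits without TPA 1 hold 1 TPA library, assumed to vary like the other groups. Each of them also called many genes outside the list, so their counts of called members are not particular to the list. NFKBIB in TPA against EGF was 2.23 without TPA 1, and turned from 1.49 to -0.29 without TPA 2 and to -0.21 without control 1, EGF 1 and TPA 2; the cause was not tested. The replicate block pairs libraries by sets of sample names, since the labels give no replicate numbers, with the shared control column placed with replicate 3. Under it NFKBIA in TPA against control was 1.48 ± 0.50 (adjusted p = 0.383 by edgeR). Depth limits TNF, CSF2, IL1A and VCAM1.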
